A study of Mus musculus with 17 samples.

Results

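The 2-cell mouse embryo was compared with the stages on either side of it. The comparison set the 3 arrays titled 2-Cell, of 17 arrays in all, against the equal-weight mean of the 4 other stages, which were the oocyte (4 arrays), the 1-cell embryo (3), the 8-cell embryo (4) and the blastocyst (3). Members were chosen by the stage in the sample title alone, and all 12422 probe sets that are not controls were tested. Each sample had an array of its own, of the Affymetrix type MG-U74Av2, and its total RNA had first been amplified in 2 rounds of in vitro transcription. All samples were mouse preimplantation material, and the labels name the stage and nothing more: strain, age, any treatment, the number of oocytes or embryos behind a sample and the time within the 2-cell stage are not given in the sources used here. Nothing in the labels says that samples of a stage came from separate collections. The p-values therefore reflect the variation among these arrays alone, and that variation may be technical.

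The 2-cell stage is when the mouse embryo takes over from the egg. The growing oocyte stores mRNA, transcription stops before ovulation, and the first divisions run on this maternal store while it is being destroyed. The main wave of transcription from the embryo's own genome comes at the 2-cell stage, with a set of genes that are copied briefly and shut off again and a larger set, much of it for making ribosomes, RNA and protein, that stays on through cleavage. A transcript can therefore stand high at the 2-cell stage by being made there, or by having been inherited and not yet destroyed.

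The values are signal intensities that the authors scaled per array, so a change is a change in a transcript's share of the amplified RNA and not in its amount per embryo. In whole embryos fewer cells of a type and less RNA per cell cannot be told apart. The 3 2-cell arrays correlated with each other at 0.952 to 0.964 over log2 values, and at no more than 0.870 with any array of another stage. Their median signals, 46.2 to 49.2, lay at the top of the range, against 34.05 to 46.85 on the arrays of the other stages. The number of arrays limits the precision. In the text, a change is the 2-cell mean minus the mean of the 4 other stage means on the log2(signal + 11) scale, which understates the change of dim genes, and it is given with its standard error. A gene or probe set rose or fell if its adjusted p was below 0.05 (limma, Benjamini-Hochberg over all 12422 probe sets).

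The 2-cell embryo differed widely from the mean of the other stages. Of the 12422 probe sets, 2426 (19.5%) were higher and 1677 (13.5%) were lower. Taken per gene, with the brightest probe set standing for its gene, 1748 of 8251 genes (21.2%) were higher and 1283 (15.5%) were lower. At least 2-fold changes were seen in 818 of the higher and 538 of the lower genes, and at least 8-fold changes in 45 and 6. The balance between the directions rests on the scaling of the arrays: 59.1% of the calls over probe sets were higher with the deposited scaling, 49.8% with quantile normalization, 49.7% with scaling on the spiked-in controls and 40.5% with arrays centred on their medians. The median change over all probe sets moved in the same way, from 0.08 with the deposited scaling to -0.05, -0.01 and -0.12 with quantile normalization, spiked-in controls and centred medians, and each change is relative to that shift.

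A difference from the mean of 4 stages can be carried by 1 or 2 of them, so a stricter test asked whether the 2-cell embryo differed from each of the 4 in the same direction. It lay above every other stage in 207 probe sets (1.67%) and below every other stage in 0.998% of them, which is 144 genes (1.75%) above and 98 genes (1.19%) below. In 337 genes (4.08%) all 3 2-cell arrays read above all 14 others, and in 178 (2.16%) all 3 read below. For 79 of the 144 genes above every stage the next highest stage was the 8-cell embryo, and the median margin to the next stage was 1.27. Without 2-cell replicate 2 the share below every stage was 0.636%, or 79 probe sets. With scaling on the spiked-in controls 6 probe sets were below every stage and 99 above.

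The profile over the stages sorted the called genes into shapes, by whether the 2-cell level was at least 2-fold away from both earlier stages, both later stages or all 4. These shapes were set after the values were seen, and they are a description with no test of their own. A gene named high or low from or until the 2-cell stage was not 2-fold away from both stages on the other side. It could still differ from either of them, as Ldha (high from) and Pdha1 (low until), described below, did. Among the 1748 higher genes, 120 peaked at the 2-cell stage, 468 were high from the 2-cell stage on, 552 were high until the 2-cell stage, and 608 differed by less. In the 468 genes high from the 2-cell stage on, the median 2-cell level was 2.14 above the oocyte and 2.35 above the 1-cell embryo. It was 0.04 below the 8-cell embryo and 0.56 above the blastocyst. The 552 genes high until the 2-cell stage had the mirror profile, with medians of 0.24 above the oocyte, 0.24 below the 1-cell embryo and 2.17 above the 8-cell embryo. Among the 1283 lower genes, 63 had a trough at the 2-cell stage, 247 were low from the 2-cell stage on, 451 were low until the 2-cell stage and 522 differed by less. The plot of the shapes shows that a peak or trough at this stage was the least common of them in each direction.

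**Figure D1:**
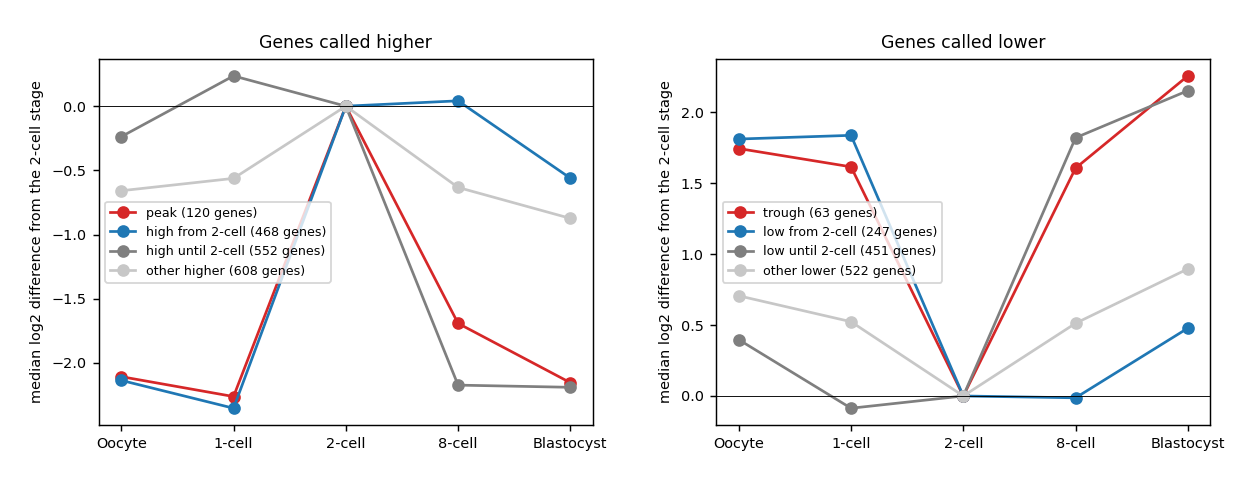
Median log2 difference of each stage from the 2-cell stage (vertical axis, signal + 11 scale) over the 5 stages (horizontal axis) for the genes called higher (left) and lower (right), split by shape, with the number of genes in the key. Lines join medians over genes and carry no error. The 120 peak genes drop on both sides of the 2-cell stage, the 468 genes high from the 2-cell stage stay level to the 8-cell embryo, and the 552 genes high until the 2-cell stage are level with the oocyte and 1-cell embryo.

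The largest rises were those of a small set of transcripts with far lower signals outside the 2-cell arrays. Tcstv1 and Tcstv3 belong to the 2-cell-stage variable group, a family known as a mark of the 2-cell embryo, and 5 further transcripts named in the same stretch of the genome moved with them. D13Ertd608e read 4818, 4633 and 3444 on the 3 2-cell arrays, against a lowest, median and highest of 17.3, 55.2 and 158.8 on the other 14. AF067063 read 3768, 3785 and 2456, against 7.0, 27.6 and 351.6. The 2-cell arrays stood far above all others in both genes, with changes of 6.10 ± 0.22 (adjusted p = 3.2e-13) and 5.92 ± 0.25 (adjusted p = 1.2e-12).

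Tcstv1 itself read 2791, 2090 and 1300 on the 2-cell arrays, against 7.0, 236.9 and 465.6 elsewhere. Tcstv3 read 1747, 1466 and 903.6, against 13.6, 95.2 and 206.4. Both were already measurable in oocytes and 1-cell embryos, where Tcstv1 averaged 444.0 and 426.7, and both were lowest in the blastocyst, at 18.2 and 24.3. Gm20767, BC147527 and AF067061 shared that profile, with 1-cell means of 195.2, 154.9 and 335.0 and blastocyst means of 26.6, 4.27 and 27.5, and rose by 4.78 ± 0.25, 4.55 ± 0.23 and 4.42 ± 0.21. Replicate 3 was the lowest of the 3 2-cell arrays in all 7 of these transcripts, and it was still above every array of the other stages.

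In RefSeq's gene order these 7 transcripts lie on chromosome 13, in a stretch of 31 genes that is bounded by the outermost of them. The array measured no other gene of the stretch. All 7 were above every other stage, but they had been picked for their rise, so this does not describe the stretch as a whole. The next measured gene on one side, Zfp131, was also above every other stage, with a change of 1.44, while the one after it, Hmgcs1, changed by 0.49 and was not. The probe sets for Tcstv1, Tcstv3, Gm20767, BC147527 and AF067061 carry names that mark probes shared with near-identical transcripts, so the 5 cannot be told apart with certainty and may be reading the same RNA. The probe sets of D13Ertd608e and AF067063 carry no such mark.

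The other 5 of the 12 genes with the largest rise among those whose 2-cell arrays lay above all others came from elsewhere in the genome. Gm2022 read 3044, 2726 and 1496 on the 2-cell arrays, against 5.8, 46.0 and 81.5 on the other 14; its probe set is also of the shared kind. Sowaha, which encodes an ankyrin repeat protein, read 875.4, 781.8 and 727.0, against 0.8, 8.2 and 21.2. The groups were far apart in both, with changes of 5.63 ± 0.25 (adjusted p = 1.9e-12) and 5.33 ± 0.23 (adjusted p = 1.9e-12). Guca1a, a guanylate cyclase activator known from photoreceptors, read 2802, 2994 and 2838, against 9.6, 95.4 and 1343. Selenos, a selenoprotein of the endoplasmic reticulum that takes part in clearing misfolded proteins, read 1653, 1652 and 1648, against 3.0, 187.9 and 753.0. D030056L22Rik, an uncharacterised transcript, read 1928, 1760 and 1839, against 13.0, 167.3 and 567.2. These last 3 genes were low in oocytes and 1-cell embryos and fell after the 2-cell stage without vanishing, since their 8-cell means were 1181, 671.5 and 465.6. All 12 of these genes, the largest rises among genes whose 2-cell arrays lay above all others, were above every other stage; the call was lost for Selenos with an offset of 1 in place of 11 and for Tcstv1 with spiked-in controls, and for no other of the 12 under the alternatives that keep the 5 stages.

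**Figure D2:**
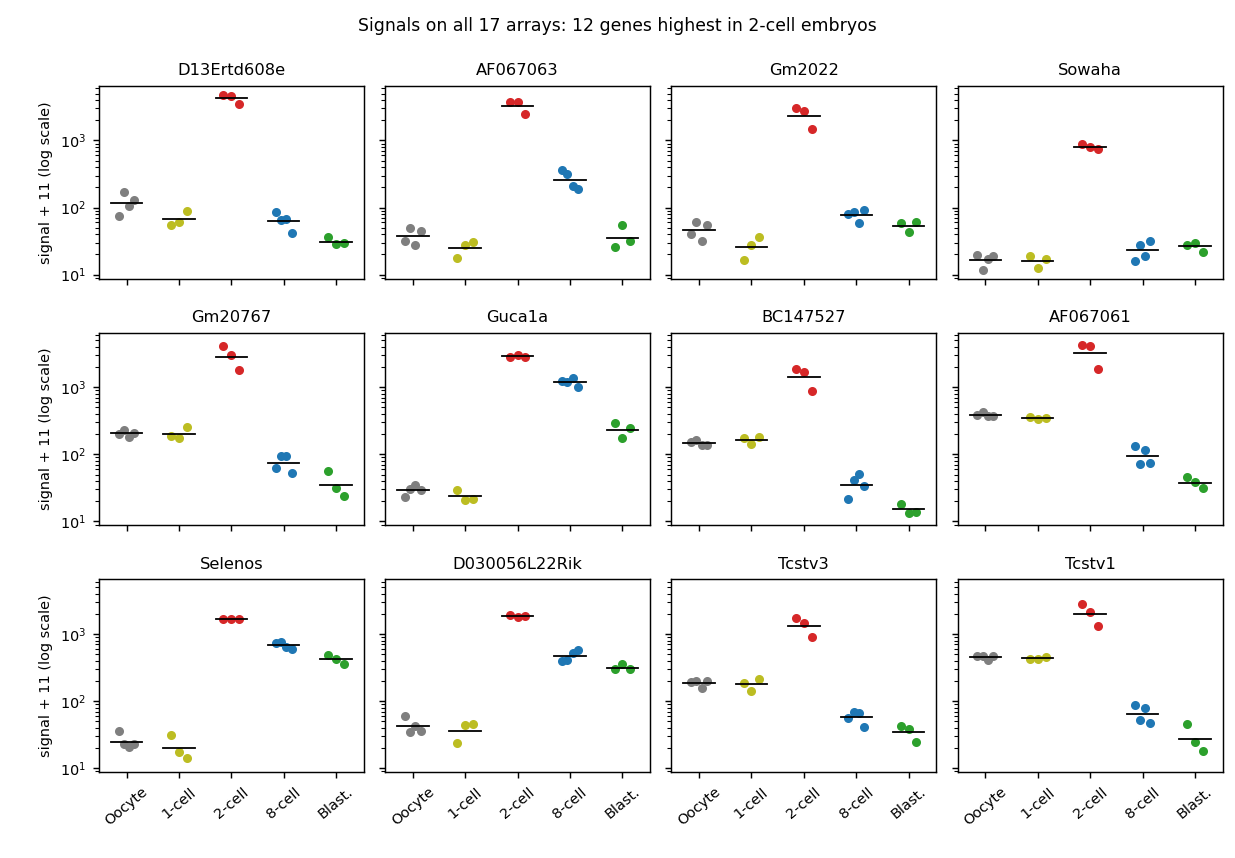
Signal + 11 on a log scale (vertical axis) on all 17 arrays for the 12 genes with the largest rise among those whose 3 2-cell arrays lie above all others. Points are arrays, coloured by stage, and black bars are stage means of the log values. Sowaha does not exceed 21.2 outside the 2-cell stage, while Guca1a, Selenos and D030056L22Rik keep 8-cell means of 1181, 671.5 and 465.6.

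Promoter sequence was looked at for these 12 genes because homeodomain factors of the OBOX, OTX and CRX kind, which bind a TAATCC core, are known from the oocyte and early embryo. RefSeq windows (GRCm38.p6) were given for 5 of the 12. The letters TAATCC, on either strand, were found in the 250 bases before the start in 3 of the 6 windows of these 5 genes. These were the windows of AF067061, BC147527 and Guca1a, and not those of Selenos or D030056L22Rik. AF067061 and BC147527 are both of the chromosome 13 stretch, so they may not be separate cases. The same letters were in 6.25% of all 32851 windows and in 5.10% of the 8408 windows of genes on the array. They were in 8.66% of the 127 windows of the peak genes, these 3 among them, and in 2.90% of the 69 windows of the trough genes. The 3 upstream sequences that hold these letters are shown 5′ to 3′ on the strand of the gene, ending at the base before the start, with the match (TAATCC, or GGATTA where it lies on the other strand) in capitals.

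AF067061: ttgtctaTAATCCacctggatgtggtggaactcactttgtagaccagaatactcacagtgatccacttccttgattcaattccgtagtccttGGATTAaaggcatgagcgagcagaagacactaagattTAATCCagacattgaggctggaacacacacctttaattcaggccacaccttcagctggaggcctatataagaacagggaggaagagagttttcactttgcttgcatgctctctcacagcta
BC147527: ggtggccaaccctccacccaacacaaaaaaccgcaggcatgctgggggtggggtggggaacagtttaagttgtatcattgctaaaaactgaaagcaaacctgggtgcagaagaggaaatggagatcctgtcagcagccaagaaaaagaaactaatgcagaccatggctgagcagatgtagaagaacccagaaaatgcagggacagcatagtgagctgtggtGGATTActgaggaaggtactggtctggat
Guca1a: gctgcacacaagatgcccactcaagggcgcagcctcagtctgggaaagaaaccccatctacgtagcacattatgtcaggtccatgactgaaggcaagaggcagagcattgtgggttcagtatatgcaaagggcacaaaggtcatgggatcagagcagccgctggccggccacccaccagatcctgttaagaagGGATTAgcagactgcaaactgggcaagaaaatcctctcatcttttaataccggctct
The windows lie at chr13:120262845-120263094 and chr13:120300142-120300391 on the forward strand for AF067061 and BC147527, and at chr17:47400607-47400856 on the reverse strand for Guca1a.

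AF067061 held 3 matches, which begin 243, 158 and 121 bases before the start, and the other two genes 1 each, 29 and 57 bases before it. Of the other motifs searched on both strands, TATAAA (the TATA box) was in 0 of the 6 windows of the 5 genes, CCAAT (the NF-Y box) in 1 and GGGCGG (the GC box) in 3. Over all windows the shares were 12.4%, 33.8% and 32.7%, and over the windows of genes on the array 8.93%, 34.6% and 52.8%. A match is a description of the letters and not a binding site.

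In the list of transient 2-cell activation 12 of 14 measured members (85.7%) rose and 1 (7.14%) fell, against 21.2% and 15.5% of all genes. The median change was 2.27, against 0.08 over all genes. The list was chosen with earlier results of these data known, so it is no independent check of the array labels. Its median 2-cell level was 2.59 above the oocyte and 2.74 above the 1-cell embryo, but 0.29 above the 8-cell embryo. The summed signal was 13585 to 14695 on the 2-cell arrays and 22213 to 23607 on the 8-cell arrays. Of the 12 members that rose, 5 were above every other stage. Usp17la, a deubiquitinase, read 154.8, 118.7 and 66.7 on the 2-cell arrays against 0.9, 5.8 and 16.7 elsewhere, and changed by 2.79 ± 0.25 (adjusted p = 2.8e-08). Hspa1a, the inducible heat shock protein that is among the first products of the embryonic genome, read 1071, 1410 and 733.2, against 59.3, 208.7 and 578.8, and changed by 2.46 ± 0.33 (adjusted p = 5.4e-06); without 2-cell replicate 2, and with spiked-in controls, it was no longer above every stage. Its neighbour Hspa1b was high at both the 2-cell and 8-cell stage, with means of 295.4 and 347.5.

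Most other members of that list were not transient here. Crxos, a homeobox gene, rose from stage means of 3.75 and 1.77 in oocytes and 1-cell embryos to 1969 at the 2-cell stage, and stood at 8089 and 4978 in the 8-cell embryo and blastocyst. Pramel6 and Pramel7, leucine-rich repeat genes of the early embryo, went from 13.8 and 20.4 in the 1-cell embryo to 1889 and 2768, and then to 4490 and 5900 in the 8-cell embryo. The difference of these genes from the mean of the other stages lay in the stages before the 2-cell embryo. Eif1a, which encodes a translation initiation factor, gave opposite answers from its probe sets: the brighter rose by 1.38 ± 0.15 with a 2-cell mean of 443.2, and the dimmer fell by 1.17.

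Maternal transcripts split by how far they had been lost. In the list of oocyte and maternal factors 13 of 28 measured genes (46.4%) were higher, 5 (17.9%) were lower and 10 were not called. Over all genes 21.2% were higher and 15.5% lower. No member of the list was above or below every stage. The median 2-cell level of the 28 was 1.24 below the oocyte, 1.23 below the 1-cell embryo and 2.57 above the 8-cell embryo. The 2-cell level thus lay between. All 13 higher members had the shape of genes high until the 2-cell stage. The summed signal of the 28 genes was 76120 to 84610 on the oocyte arrays, 30794 to 45314 on the 2-cell arrays and 9877 to 11602 on the 8-cell arrays.

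Some maternal transcripts were still at or above their oocyte level. Btg4, which links the CCR4-NOT deadenylase to maternal mRNA and so promotes its removal, read 6207, 5691 and 3793 on the 2-cell arrays; its stage means were 4966 in oocytes, 8783 in 1-cell embryos, 48.2 in 8-cell embryos and 6.43 in blastocysts. Tcl1b1, of the Tcl1 family of Akt cofactors, read 5849, 5133 and 4040, with an oocyte mean of 4045 and an 8-cell mean of 47.0. Omt2b, an oocyte transcript, read 8109, 7902 and 7596, against 3870 in oocytes and 200.5 in 8-cell embryos. C86187, an uncharacterised transcript, and Trim61, of the tripartite motif family, had the same profile, with 2-cell means of 7682 and 6070 and 8-cell means of 57.6 and 62.3. The 2-cell arrays overlapped those of oocytes or 1-cell embryos in 4 of the 5 and lay between them in C86187, and the changes of 3.39 to 3.89 were differences from the 8-cell embryo and blastocyst.

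Others were part of the way down. Bcl2l10, an anti-apoptotic protein of the oocyte, had a 2-cell mean of 4457 against 14841 in 1-cell embryos and 113.8 in 8-cell embryos. Bmp15, an oocyte growth factor, stood at 874.8 against 1754 and 7.33. Gdf9, its partner, had fallen further, to 1650 from 10731 in the 1-cell embryo, and its change of 0.49 ± 0.12 (adjusted p = 0.0042) missed the threshold with centred medians and with spiked-in controls, at adjusted p of 0.12 and 0.38.

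Other maternal transcripts had mostly been lost by the 2-cell stage. Mos, the kinase that holds the egg in meiotic arrest, read 74.2, 97.9 and 245.8 on the 2-cell arrays, against means of 3883 in oocytes and 2099 in 1-cell embryos, and was lower with a change of -1.51 ± 0.24 (adjusted p = 4.3e-05). The oocyte linker histone gene H1f8 had a 2-cell mean of 311.5 against 4592 and 8667, and was lower by -0.72 ± 0.18 (adjusted p = 0.0034), a call that was lost with an offset of 1, at -0.54 (adjusted p = 0.078). Zp3, a zona pellucida protein, averaged 599.8 against 7194 in oocytes, but with 8-cell and blastocyst means of 82.8 and 33.2 its change of 0.37 ± 0.18 was not called; without 2-cell replicate 2 it was, at 0.59. Dppa3, a maternal factor that is also made by the embryo, kept a 2-cell mean of 5932 and was not called, with a change of 0.28 ± 0.15 (adjusted p = 0.16), although it was higher with quantile normalization, at 0.67 (adjusted p = 0.00041).

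Genes for the handling of mRNA leaned higher. Of 34 in the list of mRNA storage and decay 16 (47.1%) rose and 1 (2.94%) fell, against 21.2% and 15.5% of all genes. Tob1, an antiproliferative protein that recruits the deadenylase, peaked at the 2-cell stage with 620.4, 614.5 and 366.5 against 18.2, 65.7 and 189.7 elsewhere, and changed by 3.00 ± 0.22, although a second probe set, dim on all arrays with stage means of at most 3.73, changed by -0.06 and was not called. Cnot7, a catalytic subunit of the deadenylase, was high until the 2-cell stage, with a change of 1.64 ± 0.17, an 8-cell mean of 72.3 and a 2-cell mean of 812.2; of its other 2 probe sets 1 rose, by 0.52, and 1 was not called. The single lower member, Cpsf3, the endonuclease of mRNA 3′ end formation, read 84.3, 96.4 and 139.9 against 148.6, 383.1 and 651.8 and fell by 1.70 on the log2 scale.

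The nucleolus and ribosome assembly list held the largest group of genes high from the 2-cell stage on. Of its 64 measured members 32 (50%) rose, 10 (15.6%) fell and 22 were not called, against 21.2% and 15.5% of all genes. Of the 32, 25 were at least 2-fold above both earlier stages without being 2-fold above both later ones. Nop16, a nucleolar assembly factor, read 1116, 1097 and 1118 on the 2-cell arrays; its means were 41.9 and 20.9 in oocytes and 1-cell embryos and 1994 and 1483 in 8-cell embryos and blastocysts. Polr1e, a subunit of RNA polymerase I, read 226.8, 266.8 and 384.4, all above the highest value of 201.9 on the other arrays. Taf1d, of the factor that recruits that polymerase to ribosomal DNA, rose by 1.80 ± 0.19, and its other 2 probe sets rose by 2.36 and 3.14. Of 33 ribosomal proteins 5 (15.15%) rose, 5 (15.15%) fell and 23 were not called, against 21.2% and 15.5% of all genes. These counts rest on the scaling, at 11 higher and 3 lower with quantile normalization and 3 and 9 with centred medians. The 33 genes had a median 1.83 above the 1-cell embryo and 1.15 below the 8-cell embryo.

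The RNA polymerase II machinery also leaned higher, with 25 of 54 members (46.3%) higher and 4 (7.41%) lower, against 21.2% and 15.5% of all genes. Med14, a Mediator subunit, read 119.3, 136.7 and 99.3, against 2.6, 18.5 and 34.9, and was above every other stage, though not with an offset of 1. Polr2f, a subunit common to the nuclear polymerases, read 2481, 2598 and 2878, all above the other arrays' highest of 2418. Most changes in this list were small, since 14 of the 25 were less than 2-fold away from at least one stage before and one after.

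In the list of serine, one-carbon and nucleotide synthesis 9 of 25 genes (36%) rose, 5 (20%) fell and 11 were not called. Over all genes 21.2% rose and 15.5% fell. Of the 9, 5 were high from the 2-cell stage on. The list had 2-cell medians 0.83 and 0.87 above the oocyte and 1-cell embryo and 0.62 below the 8-cell embryo. Prps1, which makes the ribose phosphate donor for nucleotides, read 4190, 4494 and 4629 from an oocyte mean of 50.7, and Psat1, of serine synthesis, read 1528, 2044 and 2578 from 8.93. Both stayed high in the 8-cell embryo, at 5380 and 6118. Shmt1, which passes carbon from serine to folate, read 701.8, 757.2 and 623.7 against 62.0, 158.9 and 469.0 and was above every other stage. That call was lost with centred medians, with spiked-in controls and without 2-cell replicate 2, blastocyst replicate 1 or blastocyst replicate 2, and a second, dim probe set was not called. Ahcy, which hydrolyses the by-product of methylation reactions, was the counterpart, and is described with the troughs.

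Lysosome and stress genes held further early risers. Ctsl, the cathepsin L protease, had 2-cell values of 2587, 2999 and 3969 and an oocyte mean of 42.2, and changed by 3.28 ± 0.21. Map1lc3b, an autophagosome protein, read 5440, 6033 and 8930 from an oocyte mean of 130.4. Its second probe set had means of 147.5 in oocytes, 430.5 at the 2-cell stage, 1609 in 8-cell embryos and 934.8 in blastocysts. That probe set changed by -0.14 and was not called. Ctss, another cathepsin, was a 2-cell peak, with 251.5, 258.0 and 190.4 against a highest other value of 149.4, on 8-cell replicate 3. Over the list of autophagy and lysosome genes the counts were equal, at 12 higher and 12 lower of 47. That is 25.5% each way, against 21.2% higher and 15.5% lower over all genes. Trib3, a pseudokinase of the stress response, read 250.1, 315.8 and 238.5, against 8.7, 44.0 and 92.6, and was above every other stage; Mt2, a metallothionein, went from 148.4 in the 1-cell embryo to 6460. In the p53 and stress response list 14 of 41 (34.15%) rose and 6 (14.6%) fell, the latter near the share over all genes.

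Dnajb9, a co-chaperone of the endoplasmic reticulum, read 1286, 1544 and 1419 on the 2-cell arrays, against 28.7, 65.0 and 990.6 elsewhere. It changed by 3.63 ± 0.17 (adjusted p = 5.9e-12), and its second probe set by 4.04. The nearest stage was the 8-cell embryo, 0.85 below it, and the call above every stage was lost with centred medians, with an offset of 1 and without 2-cell replicate 2 or 3 or 8-cell replicate 1 or 3. Chaperones as a list went both ways, with 14 of 68 (20.6%) higher and 20 (29.4%) lower. The higher share was near the 21.2% of all genes, and the lower share compares with 15.5%. Cct5, of the cytosolic chaperonin, and Hspa8, the constitutive heat shock protein, were lower, by -2.03 ± 0.16 and -1.67 ± 0.17, while the inducible Hspa1a rose.

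Cell cycle genes had equal counts of calls, at 14 higher and 14 lower of 53. That is 26.4% each way, against 21.2% higher and 15.5% lower over all genes. Cdc25c, a phosphatase that activates Cdk1 at entry into mitosis, read 728.0, 995.4 and 988.0 on the 2-cell arrays, against 52.6, 161.7 and 275.6, and rose by 2.60 ± 0.14, with 3.06 in its second probe set. Cdkn2d, an inhibitor of the Cdk4 and Cdk6 kinases, read 389.5, 495.5 and 314.5, against 11.1, 34.5 and 119.3. Ccne1, the cyclin of entry into S phase, read 792.9, 892.8 and 1052, against 51.3, 151.2 and 694.3. These 3 genes lay apart from all other arrays, and the first 2 passed the test against every stage. Among chromatin genes, 20 of 53 (37.7%) rose and 12 (22.6%) fell, both above the shares over all genes. Smarca2, an ATPase of the SWI/SNF remodelling complex, read 1121, 1160 and 741.5, with means of 489.9 in oocytes, 20.1 in 8-cell embryos and 22.0 in blastocysts. It was above every other stage, but not without 2-cell replicate 1 or 2, with centred medians, with spiked-in controls or with an offset of 1.

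The 12 genes with the largest drop among those whose 2-cell arrays lay below all others included enzymes, a carrier and a proteasome subunit. Pdcd6, a calcium-binding protein of membrane traffic, read 59.2, 66.7 and 93.7 on the 2-cell arrays, against a lowest, median and highest of 426.0, 755.0 and 1318 on the other 14. Psma7, an alpha subunit of the 20S proteasome, read 227.0, 133.4 and 212.6, against 815.5, 1596 and 2003. Ak4, a mitochondrial adenylate kinase, read 134.4, 122.5 and 64.4, against 426.8, 738.8 and 2099. The groups did not overlap in any of the 3, and the levels fell by 3.19 ± 0.14 (adjusted p = 1.4e-12), 3.00 ± 0.17 (adjusted p = 5.2e-11) and 2.98 ± 0.17 (adjusted p = 5.8e-11) on the log2 scale.

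Slc12a7, a potassium-chloride cotransporter, had the lowest 2-cell mean of the 12, with 11.7, 14.7 and 14.9, against 109.2, 185.6 and 330.7. Uqcrc2, a core subunit of respiratory complex III, read 232.2, 227.0 and 352.6, against 1042, 1657 and 3198. Suclg1, of the citric acid cycle, read 61.4, 57.4 and 87.5, against 163.2, 358.8 and 2265. Hsd17b4, of fatty acid oxidation in the peroxisome, Txn1, the cytosolic thioredoxin, and Ahcy fell as well, by 2.64, 2.77 and 2.73 on the log2 scale, and all were below every other stage with the deposited scaling. With scaling on the spiked-in controls, Pdcd6, Psma7, Ak4, Slc12a7 and Uqcrc2 kept that call and the other 6 of the 11 genes with it did not. Cldn4, a tight junction claudin with 2-cell values of 6.0, 33.5 and 16.9, fell by 2.78 on the log2 scale but did not pass the test against every stage.

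Probe sets disagreed for a pair of these genes. Sema4b, a semaphorin, had the largest drop of the 12, with 64.0, 37.1 and 56.5 against 133.9, 857.5 and 1637 and a change of -3.36 ± 0.17, but its other 2 probe sets changed by -0.03 and 0.09 and were not called. Hus1, of the DNA damage checkpoint clamp, changed by -2.42 ± 0.19 in its brightest probe set and by 0.93 and 0.43 in the other 2, neither of them called.

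**Figure D3:**
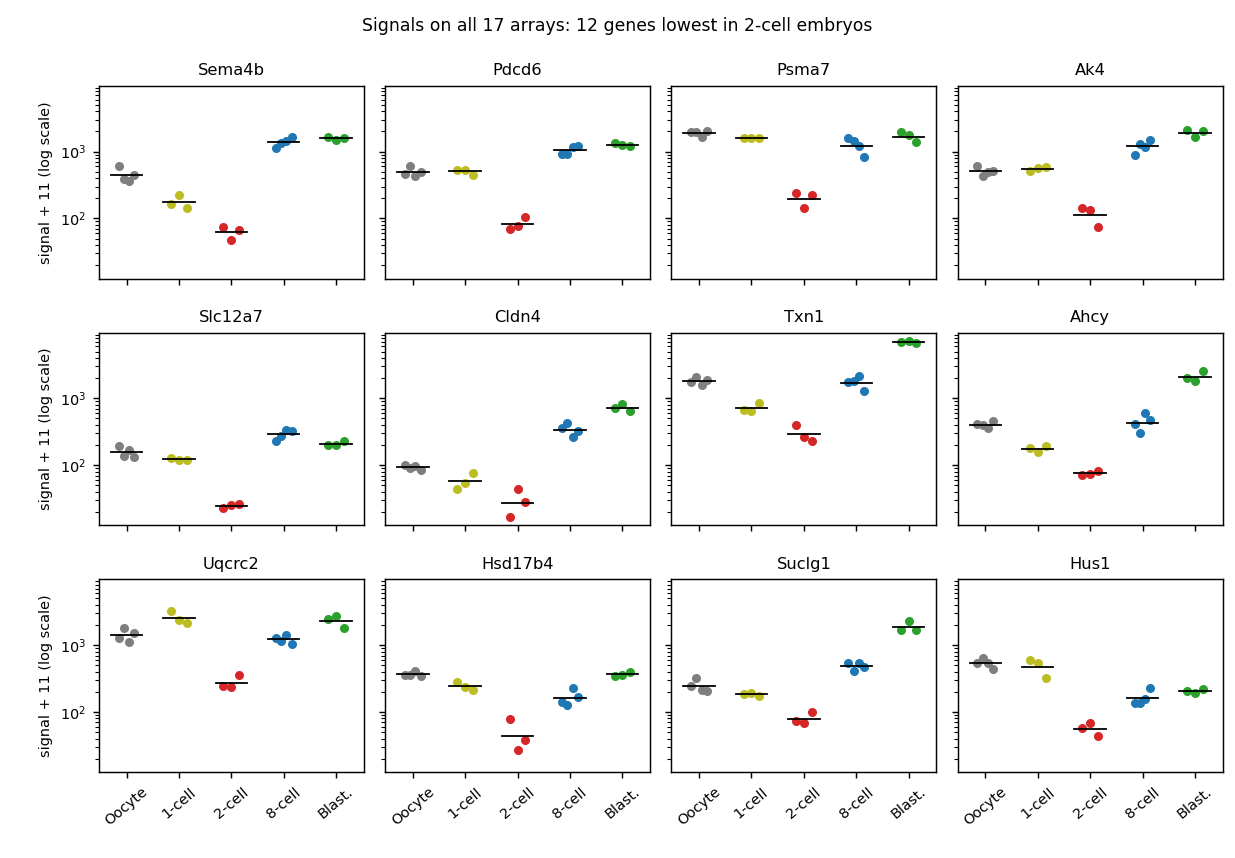
Signal + 11 on a log scale (vertical axis) on all 17 arrays for the 12 genes with the largest drop among those whose 3 2-cell arrays lie below all others. Points are arrays, coloured by stage, and black bars are stage means of the log values. Pdcd6, Psma7 and Ak4 are low on the 2-cell arrays alone, and Slc12a7 has the lowest 2-cell mean, from signals of 11.7 to 14.9.

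The proteasome, the complex that degrades ubiquitin-tagged proteins, was lower as a group. Of its 44 genes, 27 (61.4%) were lower and 3 (6.82%) higher, against 15.5% and 21.2% of all genes. The median change was -0.77, and 4 were below every other stage. Besides Psma7 these were Psma2, Psmb3 and Psmb2, of the 20S core, of which Psma2 read 849.1, 686.4 and 1034, against 2131, 2961 and 3630. Psmb3 read 270.3, 120.8 and 189.1, against 382.1, 875.6 and 2314. The median member was 0.76 below the oocyte, 1.27 below the 8-cell embryo and 1.59 below the blastocyst, but level with the 1-cell embryo, at 0.03 above. Psmd7, of the regulatory cap, was among those not called, with a change of -0.41 ± 0.22, but was lower without 2-cell replicate 3, at -0.74. With scaling on the spiked-in controls Psma7 alone of the 4 stayed below every stage.

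Oxidative phosphorylation genes, which make up the respiratory chain, were also lower. Of the 74 measured, 42 (56.8%) were lower and 4 (5.4%) higher, against 15.5% and 21.2% of all genes. The median change was -0.60, with 2-cell medians 0.63 below the oocyte, 0.20 above the 1-cell embryo and 1.73 below the blastocyst. Ndufa5, of complex I, read 101.3, 85.3 and 167.0, with stage means of 1141 in oocytes, 168.3 in 1-cell embryos and 3416 in blastocysts. It fell by 3.00 on the log2 scale, yet its 2-cell level was near that of the 1-cell embryo. Ndufb8, of the same complex, read 33.2, 10.4 and 12.2, against 54.4, 134.2 and 349.8, and was below every other stage. Uqcr10, of complex III, was not called, with a change of -0.47 ± 0.23, but was lower with centred medians (-0.68, adjusted p = 0.0093) and without 8-cell replicate 4 (-0.54, adjusted p = 0.032). The counts of lower members in the proteasome and oxidative phosphorylation lists stayed at 27 to 29 and 40 to 49 under all 4 scalings.

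Glycolysis did not follow oxidative phosphorylation: 11 of 25 genes (44%) rose and 7 (28%) fell, against 21.2% and 15.5% of all genes. Ldha, the muscle-type lactate dehydrogenase, read 444.8, 514.8 and 330.6 on the 2-cell arrays, above all 14 others, whose highest was 249.7 in the blastocyst; the 8-cell mean was 44.8. Its change was 2.96 ± 0.31 (adjusted p = 2.5e-07). Pdha1, of the pyruvate dehydrogenase complex that leads into the mitochondrion, read 289.6, 213.2 and 217.2 and lay below all 14 others, whose lowest was 403.0, with a change of -1.88 ± 0.18. Hk2, a hexokinase, fell by 1.70 on the log2 scale in its brightest probe set and rose by 0.76 in the other, which also passed the test but was dim, with a 2-cell mean of 15.7. Without the blastocyst the drop of Hk2 was 0.59 on the log2 scale and was not called, at an adjusted p of 0.11.

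**Figure D4:**
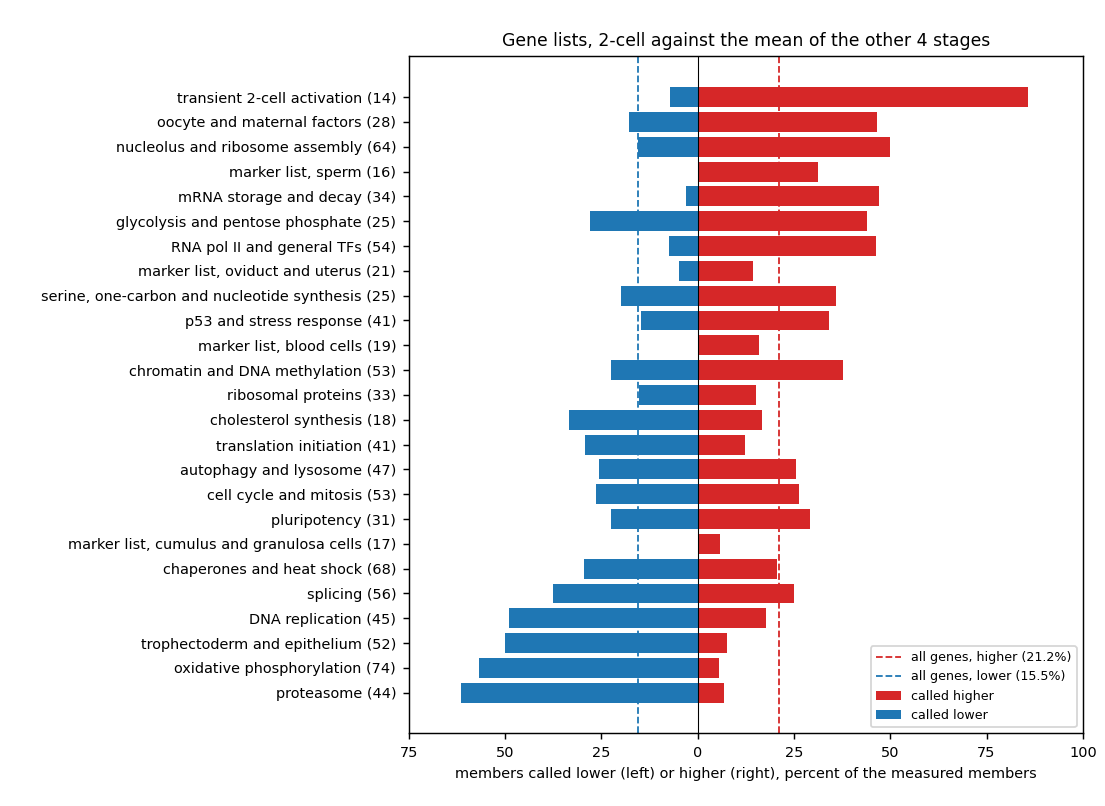
Percent of the measured members of each gene list called higher (red, to the right) or lower (blue, to the left) in the 2-cell embryo, with the number measured in brackets and lists ordered by median change. Dashed lines give the shares over all 8251 genes, 21.2% higher and 15.5% lower. Transient 2-cell activation stands out on the right, with 12 of 14, and the proteasome and oxidative phosphorylation on the left, with 27 of 44 and 42 of 74.

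Genes of DNA replication were more often lower than higher, at 22 of 45 (48.9%) with 8 (17.8%) higher and a median of -0.41. Over all genes 15.5% were lower and 21.2% higher. Lig1, the ligase that joins Okazaki fragments, read 40.1, 18.7 and 45.0, against 57.4, 115.8 and 278.6, while a second, dimmer probe set rose by 0.92; its call below every stage was kept in 15 of 28 alternative fits. Pold1 and Pold2, of DNA polymerase delta, fell by 1.57 and 1.59 on the log2 scale, with all 2-cell arrays below all others, but a second probe set of Pold1 changed by 0.38 and was not called. Pole4, a small subunit of polymerase epsilon, went the other way, with a change of 1.58 ± 0.14 and 1.29 in its second probe set. Splicing genes were also split towards lower, at 21 of 56 (37.5%) with 14 (25%) higher, against 15.5% and 21.2% of all genes. Srsf3 read 187.9, 151.9 and 134.8 against 234.9, 863.5 and 2236. Srsf1, a splicing factor of the same family, read 146.0, 156.3 and 202.3 against 19.6, 60.1 and 129.1. The Srsf1 rise rests on 1 of 4 probe sets, since the other 3 were not called.

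Translation initiation had 5 of 41 members (12.2%) higher and 12 (29.3%) lower, against 21.2% and 15.5% of all genes. Eif3d and Eif3e, both of the scaffold complex eIF3, fell by 1.86 and 1.68 on the log2 scale. Cholesterol synthesis was split within the pathway. Sqle, which makes squalene epoxide, read 953.2, 1089 and 1162, against 124.1, 179.9 and 446.6, and was above every other stage in all 28 alternative fits that keep the 5 stages and its probe set. Msmo1, a later enzyme of the same route, read 82.8, 61.3 and 48.1, against 89.2, 250.9 and 444.1, and was below every other stage in 14 of those 28 fits. The list as a whole had 3 of 18 (16.7%) higher and 6 (33.3%) lower, against the same 21.2% and 15.5%.

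Genes of the later lineages were more often lower than higher. In the list of trophectoderm and epithelium 26 of 52 (50%) fell and 4 (7.69%) rose, against 15.5% and 21.2% of all genes. The median change was -0.50, and the 2-cell median was 0.20 above the oocyte, 0.33 below the 8-cell embryo and 1.57 below the blastocyst. Of the 26, 10 were low until the 2-cell stage, 5 were low from it on, 2 were troughs and 9 differed by less. The summed signal was 6817.8 to 6933.7 on the 2-cell arrays. It was already 8744.6 to 10426.5 on the oocyte arrays and 12209 to 16132 on the 1-cell arrays. Krt8 and Krt18, the simple epithelial keratins, had 2-cell means of 30.8 and 33.4 and blastocyst means of 3655 and 3279, and without the blastocyst neither was called, with changes of -0.46 and -0.47. A second probe set of Krt18 changed by 0.01 and was not called. Cldn7 read 2.5, 4.2 and 3.7, and averaged 570.3 in the blastocyst. Cdx2, the trophectoderm regulator, read 2.2 to 4.5 at the 2-cell stage and did not exceed 15.8 on any array, so its probe set gives no order of stages.

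Among genes whose 2-cell mean was not the lowest of the 5, the largest drops were seen in genes with high levels after the 2-cell stage. Serpinb6a, a protease inhibitor, read 20.3, 2.6 and 9.6 on the 2-cell arrays, against 4.4, 140.1 and 2481 elsewhere. Vnn1, a pantetheinase, read 40.8, 24.5 and 34.0 and had means of 35.8 in oocytes, 29.0 in 1-cell embryos and 2478 in 8-cell embryos. Fabp3, a fatty acid binding protein, and Aimp1, of the tRNA synthetase complex, fell by 2.39 and 2.15 on the log2 scale. In these genes the 2-cell arrays overlapped those of the 1-cell embryo. Bex6 was the opposite case among the rises, with 1799, 2146 and 2178 at the 2-cell stage, 2320 in the 8-cell embryo and at most 61.1 as a mean in the other stages.

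Pluripotency genes came on at different times. Nanog was still low at the 2-cell stage, at 42.5, 24.5 and 47.0, against means of 1070 in the 8-cell embryo and 1726 in the blastocyst, and was lower by -2.10 ± 0.16 (adjusted p = 2.2e-09). Klf4, which read 432.2, 439.4 and 450.4, had left its oocyte and 1-cell means of 29.8 and 44.6 and stood below its 8-cell mean of 1397; its second probe set, at -0.15, was not called. Dppa4 and Fbxo15 were high from the 2-cell stage on, with 2-cell means of 2995 and 6005 and 1-cell means of 64.3 and 324.2. Pou5f1 was not called, with a change of -0.43 ± 0.17 (adjusted p = 0.058), and its second probe set changed by 0.14. It was called lower with centred medians (-0.63), quantile normalization (-0.45), array weights (-0.48) and both filters on dim probe sets, and without 1-cell replicate 1 (-0.50) or 2-cell replicate 1 (-0.61). Klf5 was not called, with 0.24 ± 0.27. Of the 31 genes in the list 9 (29.0%) rose and 7 (22.6%) fell, against 21.2% and 15.5% of all genes.

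**Figure D5:**
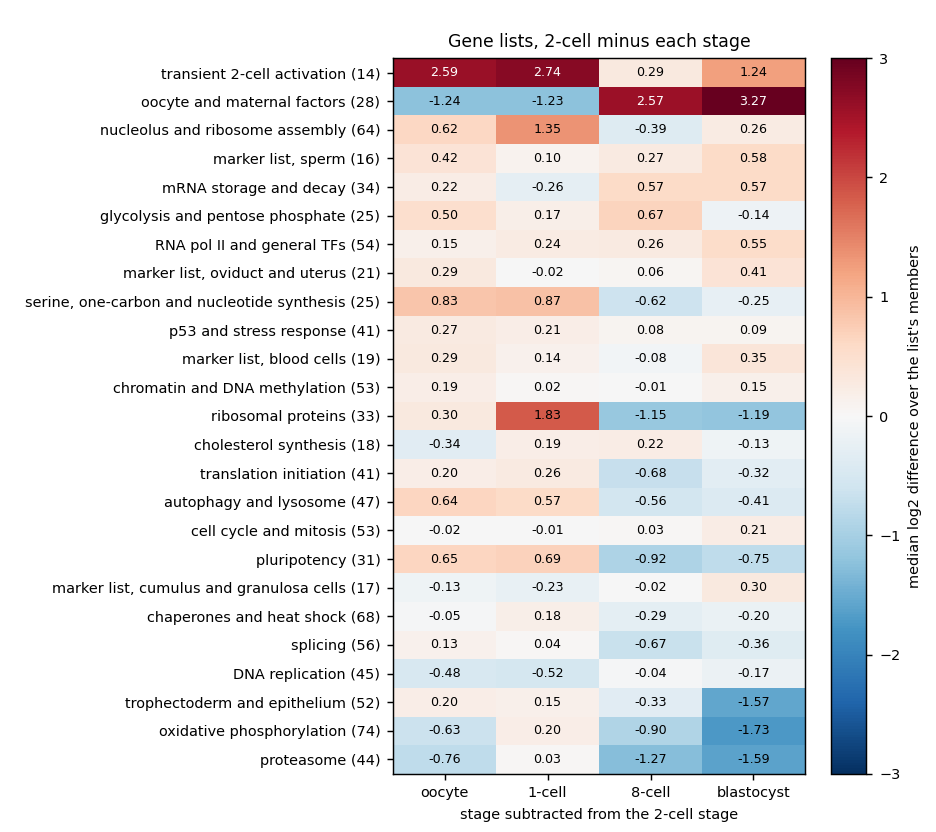
Median log2 difference, 2-cell minus each other stage (columns), over the measured members of each gene list (rows), with red for higher and blue for lower in the 2-cell embryo; numbers in the cells are the medians, and members per list stand in brackets. Oocyte and maternal factors are below the oocyte by 1.24 and above the 8-cell embryo by 2.57, while the proteasome and oxidative phosphorylation are level with the 1-cell embryo and below the other 3 stages.

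These lists kept the sign of their median under the 4 scalings: transient 2-cell activation, nucleolus, mRNA storage and decay, RNA polymerase II, oocyte and maternal factors and glycolysis above 0, and proteasome, oxidative phosphorylation, trophectoderm and epithelium, DNA replication and splicing below it. Those with a median near 0 did not, among them chromatin (0.11 as deposited, -0.09 with centred medians), ribosomal proteins (0.10 and -0.11), translation initiation (0.03 and -0.18), autophagy and lysosome (0.03 and -0.18) and p53 and stress response (0.19 and -0.01). No direction is given for these.

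Markers of other cells that could be carried along with an embryo were mostly dim. Of 17 cumulus and granulosa markers 1 (5.88%) rose and 0 fell, and of 19 blood markers 3 (15.8%) and 0. Of 16 sperm markers 5 (31.25%) rose and 0 fell, and of 21 oviduct and uterus markers 3 (14.3%) and 1. Over all genes 21.2% rose, so the sperm list alone was above that share. In that list 8 of 16 members were highest at the 2-cell stage, against 20.3% of all genes. With centred medians, quantile normalization and spiked-in controls 2, 2 and 3 sperm markers rose. The summed signal of the cumulus and granulosa markers was 894.0 to 1106 on the 2-cell arrays, within the range of the other stages, which ran from 514.6 to 1933. The summed sperm markers read 733.0 to 823.9 on the 2-cell arrays and 246.7 to 656.8 on the others, and the summed blood markers 890.0 to 1120 against 600.2 to 1291.

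Of the oviduct and uterus markers 14.3% rose, against 21.2% of all genes, and 17 of 21 were not called, but Ovgp1 and Ltf were high. The summed signal of the list was 1896.4 to 2588.5 on the 2-cell arrays and 762.0 to 1352 on the oocyte, 1-cell and blastocyst arrays, and it reached 8125 on an 8-cell array. Without Ovgp1 and Ltf the other 19 summed to 1026 to 1164 on the 2-cell arrays, within the 700.6 to 1347 of the other stages. Ovgp1, the oviduct glycoprotein that coats eggs and early embryos, read 1272, 714.7 and 688.1 at the 2-cell stage and 6212 on 8-cell replicate 2, and 22.5 to 114.1 on the other 13 arrays. Ltf, lactoferrin, a secretory protein of the reproductive tract, had the same arrays on top, with 291.1, 170.7 and 167.1, then 827.7, and 2.3 to 72.5 on the others. Without 8-cell replicate 2 the change of Ovgp1 was 3.92 in place of 3.54, and its adjusted p 1.5e-09 in place of 0.0015. At the 2-cell stage 4 of the 21 markers had a mean under 11 and 10 were above the median signal of 41.1. The part of such cells or their RNA in the other 2-cell changes was not tested. Without 8-cell replicate 2 the probe sets above every stage numbered 202 in place of 207. That fit keeps the 2-cell arrays as they were, so it cannot show such a part.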

How the data were processed

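Expression was measured on 17 arrays, 1 per sample. The deposited values are linear signal intensities per probe set that the authors scaled per array, since the mean of the middle 96% of values was 150.1 on each array; the software behind them is not given in the sources used here. Values were taken as log2(intensity + 11) with no filter on low values, and 66 control probe sets were left out. limma 3.58.1 in R 4.3.3 was fitted over all 17 arrays with 1 mean per stage and an intensity trend, and the 2-cell mean was set against the mean of the 4 other stages. A call above or below every other stage used the largest of the 4 one-sided p-values. Both were adjusted by Benjamini-Hochberg over 12422 probe sets, and the fit was tested on simulated data. A gene took its brightest probe set among the 10833 with 1 symbol (396 had several, 1193 none), from the platform annotation updated by Entrez identifier. Named genes were, in each direction, the 12 with the largest change among called genes whose 2-cell arrays lay apart from all others and the 6 with the largest change among those whose 2-cell mean was not the extreme; then the leading members of each list, up to 2 uncalled members and a set of landmark genes. Not all of these are described, and further names were chosen after their values were seen. The comparison and the gene lists were chosen with earlier results of these data known. The labels do not say that replicate numbers pair the arrays, so the main fit used no pairing. Alternatives covered scaling, offset, filters, probe sets, weights, the replicate number as a block, and leaving out each array or stage.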

Additional observations from a re-analysis of the deposited data

Results flagged for a closer look

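Within the stages of 4 arrays, oocyte and 8-cell, 1 array stood apart from the other 3 in 20 of 284 groups tested over the 142 genes looked at, which is 7.04%; chance gives about 1 in 20. Stages with 3 arrays, the 2-cell stage among them, were not tested in this way. The cases were spread over 7 arrays, with 5 on 8-cell replicate 3 and 4 on oocyte replicate 3.

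The widest gaps were those of the oviduct genes on 8-cell replicate 2, where Ovgp1 read 6212 against 43.1 to 114.1 and Ltf read 827.7 against 6.0 to 11.4. Gadd45a, a stress gene, read 60.1 on the same array against 7.7 to 13.6. On 8-cell replicate 3, Ctss read 149.4 against 22.9 to 32.6, Lyz2 50.3 against 1.6 to 6.1, Ifng 18.5 against 2.5 to 3.4, Fabp3 241.2 against 135.3 to 142.6 and Sucla2 1404 against 1146 to 1168. On 8-cell replicate 4, Sqle read 446.6 against 286.0 to 299.4 and Ldhc 9.2 against 2.5 to 3.2.

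Among oocytes, replicate 3 was lowest for Tcstv3, at 146.0 against 184.6 to 190.0, for Tcstv1, at 396.2 against 454.4 to 465.6, and for Psma7, at 1656 against 1956 to 2003, and highest for Cdkn1a, at 26.5 against 18.6 to 19.4. Replicate 4 was lowest for Bmp15, at 842.8 against 1284 to 1338, for Psma5, at 880.1 against 935.1 to 942.2, and for Sqle, at 124.1 against 149.3 to 153.3. Replicate 1 was highest for Ldha, at 58.6 against 11.6 to 17.5, and replicate 2 for Fdft1, at 2731 against 1906 to 2006, and for Lyz2, at 10.6 against 1.2 to 2.0.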

How the results depend on the processing

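With scaling on the spiked-in controls 1395 probe sets were higher, 99 were above every other stage and 0.0483% below, and with centred medians 115 were above. Without the 1-cell stage 438 were above and 3.03% below the remaining stages, and without the 8-cell stage 483 and 2.16%, each with 1 stage fewer to pass. Leaving out each array gave 1967 to 2506 higher, 1369 to 1684 lower, 142 to 213 above every stage and 0.636% to 0.998% below, the lowest of each without 2-cell replicate 2. With the replicate number as a block the counts were 2330 higher, 1626 lower, 198 above and 106 (0.853%) below. Deviations of arrays with the same number correlated at -0.08 to 0.09, and those with different numbers at -0.196 to 0.276. Of the 17 arrays, 4 correlated best with their own number. Without the oocyte or 1-cell stage the change of H1f8 was 0.32 or 0.62. Without the 8-cell embryo or blastocyst that of Gdf9 was -0.37 or -0.62, and without the blastocyst that of Zp3 was -0.74. Each of these fits subtracts the mean of the remaining stages alone, and why the stages differ was not tested. No other change among the 142 genes looked at turned sign with a call. Of 58 genes above or below every stage that were looked at, 25 kept the call in all fits with 5 stages. Signals under 11 have no order here.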

Other observations

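Further genes with a high 2-cell level included Prdx4, Ficd and Sec61a2, which act in the endoplasmic reticulum; other genes of that compartment, such as Erp44 (-2.13), Pdia5 (-1.51) and Rpn1 (-1.50), were lower. Prdx4, a peroxiredoxin, read 641.9, 663.5 and 862.9 on the 2-cell arrays, against a lowest, median and highest of 13.6, 174.8 and 388.4 on the others. Ficd, which modifies the chaperone BiP, read 406.2, 442.1 and 659.8, against 29.1, 45.6 and 366.8. Sec61a2, of the translocon, read 259.2, 395.4 and 221.9, against 7.1, 28.1 and 147.2. The changes were 2.65 ± 0.14, 2.73 ± 0.20 and 2.74 ± 0.26, and the calls above every stage were lost with centred medians in all 3. These genes, and those that follow, were chosen after their values were seen.

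Single genes outside the lists also had a 2-cell peak. Hipk1, a homeodomain-interacting kinase, read 347.2, 268.5 and 330.5 against a highest other value of 37.4, and its relative Hipk3 read 180.8, 257.7 and 324.7 against 65.3. Eloa, an elongation factor of RNA polymerase II, read 1375, 1762 and 2494 against 1028. Ifng, the gene of interferon gamma, read 110.4, 130.5 and 118.3 against 18.5, in 1 probe set.

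Mitochondrial ribosomal proteins, which make the proteins encoded in the mitochondrion, were mostly lower. Of 60 measured 37 fell, 5 rose and 18 were not called, with a median change of -0.64 and 5 below every stage. Over all genes 15.5% were lower and 21.2% higher. Mrps31 read 126.3, 118.5 and 166.2 against 290.1, 669.7 and 1281, and Mrps21 read 64.4, 56.6 and 58.7 against 161.4, 341.1 and 459.8. Both lost the call below every stage with scaling on the spiked-in controls. Lrpprc, which stabilises mitochondrial mRNA, fell by 1.83 on the log2 scale.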
